A study of Mus musculus with 30 samples.

Results

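The genes described here are the 9 genes of the Myc and Mxd network, Myc, Mycn, Mycl, Max, Mnt, Mxi1, Mxd1, Mxd3 and Mxd4. They were taken by their symbols from a table of 22477 genes, and all 9 have a row in it. RNA-seq libraries were made from the polyadenylated RNA of mouse secondary iPSCs, in 15 conditions with 2 replicates each, 30 samples in all. All conditions share the same genotype: dox-inducible transgenes for Oct4, Sox2, Klf4 and cMyc (OSKM), GFP in place of 1 Nanog allele under the Nanog promoter, and an always active nuclear RFP. Cells grown in serum/LIF were first kept in 2i/LIF for at least 24 h. The methods describe plating them as single cells at low density on gelatin in 2i/LIF before withdrawal. In 7 conditions the cells had spent 0, 24, 36, 48, 60, 72 or 96 h in N2B27 medium without 2i/LIF. In the other 8, cells from 0, 24, 48 or 96 h of withdrawal had been re-seeded for 48 h in serum/LIF, either without doxycycline (–dox) or with it to induce OSKM (+dox). The cultures were kept on CF1 mouse embryonic fibroblasts before the experiment, and the methods describe such feeders again for re-seeding in the colony assay, so a bulk library may hold feeder RNA.

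Each value is an FPKM, fragments per transcript length and library size, in which the authors combined the 2 replicates of a condition. No replicate values were available here, so no value below carries an error or a test, and every comparison is a description of 1 value against another. How many reads stand behind it is unknown. A gene was called higher or lower when the ratio of its values was at least 2 and the larger value was at least 1 FPKM, and beside each count of called members stands the percentage of all tested genes called in the same comparison. In bulk RNA, fewer cells of a type and less RNA per cell cannot be told apart.

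The proteins of this network share a basic helix-loop-helix and leucine zipper region. Myc, N-Myc and L-Myc (from Myc, Mycn and Mycl) bind DNA at E-boxes as pairs with Max and activate genes of ribosome production, metabolism and cell division. The Mxd proteins and Mnt compete for Max, bind the same E-boxes and recruit Sin3 and histone deacetylases to repress transcription. In pluripotent cells Myc and N-Myc are known for supporting growth and self-renewal, and Myc is 1 of the reprogramming factors used here.

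E-boxes of the letters CACGTG were searched in the members' own promoters, because the network's proteins bind these letters. The windows ran from 250 bases before to 50 bases after each gene's start, in RefSeq sequence on GRCm38.p6, and 8 of the 9 members have an entry, all except Myc. The letters, which read the same on both strands, stood in the windows of 3 of these 8 genes, Max, Mnt and Mxd4, against 8.09% of the 27025 genes with a window. In Max they lay from base -3 to 3 around the start, in Mnt from -123 to -118 and in Mxd4 from -219 to -214. The sequences around them are shown 5′ to 3′ on the gene's strand with the E-box in capitals, at chr12:76962226-76962281 (minus strand) for Max, chr11:74830771-74830826 (plus strand) for Mnt and chr5:34187904-34187959 (minus strand) for Mxd4.
Max: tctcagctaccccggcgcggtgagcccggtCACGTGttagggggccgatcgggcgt
Mnt: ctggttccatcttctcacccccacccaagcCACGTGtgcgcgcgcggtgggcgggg
Mxd4: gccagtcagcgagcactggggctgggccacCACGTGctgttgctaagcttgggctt

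E2F letters were searched on either strand, because E2F factors are known regulators of Mycn. The letters were TTTGGCG as the first form, TTTCCCG as the second form, TTTCGCG as the third form and TTTGCCG as the fourth form. They stood in the windows of 2 of the 8 genes, Mycn and Mycl, against 7.65% of all genes. Mycl had 1 match that began 4 bases after the start. Mycn had 3, which began 183, 178 and 168 bases before the start, and the first and the second of them overlap. The Mycn stretch, at chr12:12941978-12942049 on the minus strand, is shown with the matches in capitals because Mycn had the highest level of the Myc genes during withdrawal. These matches describe letters in the windows and not bound sites.
Mycn: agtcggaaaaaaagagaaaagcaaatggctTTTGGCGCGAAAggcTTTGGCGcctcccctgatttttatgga

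The genes lie apart on mm10, in the Gencode M21 annotation. Myc is on chromosome 15 from 61985391 to 61990374 and Mycl on chromosome 4 from 122995652 to 123002485, both on the plus strand. Mycn and Max are on the minus strand of chromosome 12, from 12936093 to 12941914 and from 76937269 to 76962201. Mnt is on chromosome 11 from 74830920 to 74845725 (plus), Mxi1 on chromosome 19 from 53310518 to 53375810 (plus) and Mxd1 on chromosome 6 from 86647042 to 86669161 (minus). Mxd3 is on chromosome 13 from 55325168 to 55329823 and Mxd4 on chromosome 5 from 34173883 to 34187720, both minus. Mxd3 overlaps Prelid1 and Mxi1 overlaps Gm10197, in each case a gene of the opposite strand, and it is not stated whether counting used the strand. Reads of the overlapping stretches therefore leave the values of Mxd3 and Mxi1 uncertain. The value of Myc can include reads of the transgene, which cannot be told apart from the endogenous gene in this table.

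Summed over all genes, the FPKM of the conditions ranged from 603278 to 832607, and each condition had from 2756 to 5090 genes at 0. Markers of the cell states were read beside the members. Nanog, the naive factor that carries the reporter, was at 227 FPKM at the start and 6.45 at 48 h. It was at 38.9 FPKM at 72 h and 14.5 at 96 h. Pou5f1, which encodes Oct4, went from 199 FPKM at the start to 25.5 at 96 h. The summed level of 10 naive markers went from 1340.6 to 39.1 FPKM over the same time. The 10 formative and lineage markers summed to 54.5 FPKM at the start, 799 at 48 h and 185 at 96 h, and Dnmt3b alone, named after its values were seen, made 586 of the 48 h sum. The summed level of 15 fibroblast markers was 846 FPKM at 0 h, between 48.2 and 236 at the other timepoints and between 12.7 and 511 after re-seeding. Its collagens and Postn, which encode matrix proteins of fibroblasts, made most of the 0 h value (Col3a1 201 and Postn 102 FPKM). At 96 h Acta2 and Tagln, at 97.9 and 105 FPKM, made most of the sum. The makeup of the sum thus differed between conditions. Fap was between 0 and 0.367 FPKM in every condition.

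During 2i/LIF withdrawal Myc and Mycn had the widest ranges of the network. Of the 8 members that reached 1 FPKM in the time course, 4 differed at least 2-fold between their highest and lowest timepoint, namely Myc, Mycn, Max and Mnt, against 60.7% of all tested genes. The ratio of highest to lowest was 16.07 for Myc, 4.60 for Mycn, 2.39 for Max and 2.16 for Mnt. It was between 1.56 and 1.98 for Mycl, Mxi1, Mxd3 and Mxd4. Mxd1 stayed under 1 FPKM at all 7 timepoints.

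**Figure D1:**
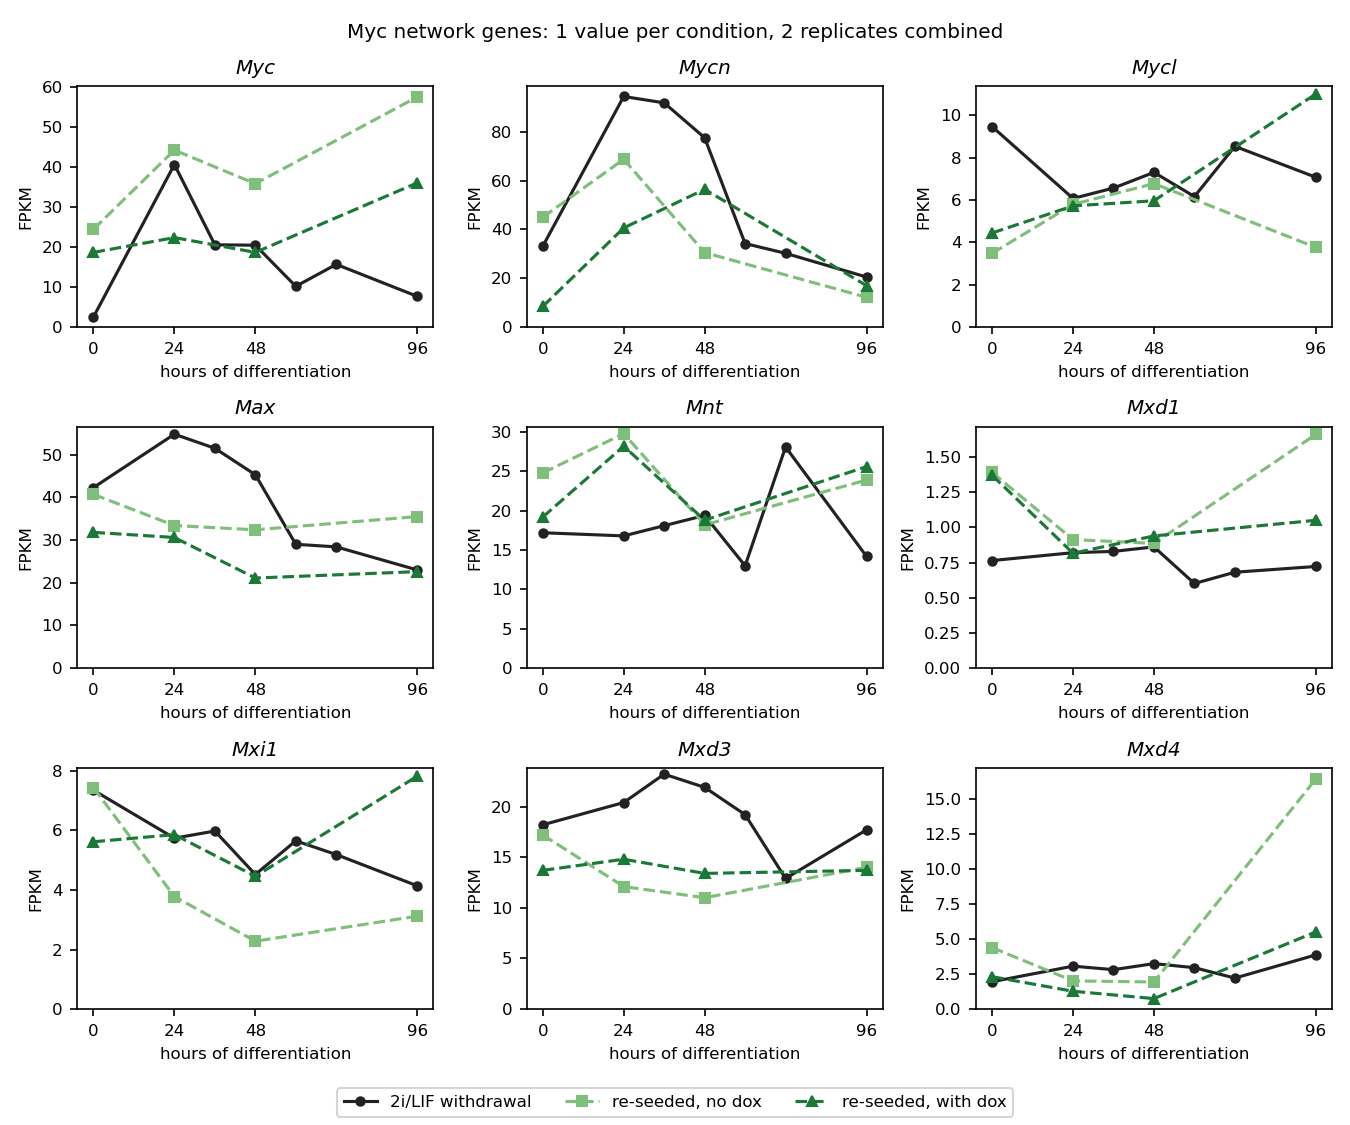
FPKM (y axes, linear, from 0, scaled for each gene) of the 9 network genes against hours of differentiation (x axes), as 1 value per condition with 2 replicates combined. Black circles are the 2i/LIF withdrawal timepoints, light green squares the cells re-seeded without dox and dark green triangles those re-seeded with dox. Myc rose from 2.53 to 40.7 FPKM in the first 24 h, and Mxd4 reached 16.4 FPKM in the cells re-seeded from 96 h without dox.

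Myc, the founding gene of the family, was at 2.53, 40.7, 20.6, 20.5, 10.2, 15.7 and 7.7 FPKM after 0, 24, 36, 48, 60, 72 and 96 h of withdrawal. The 0 h value was the lowest of all 15 conditions and the 24 h value was 16.1-fold higher, which put Myc at rank 61 from the top of the 12809 genes with a ratio for this step. Mycn, the paralog best known from embryonic and neural cells, was at 33.1, 94.4, 91.8, 77.5, 34.2, 30.2 and 20.5 FPKM at the same timepoints. It was high from 24 to 48 h, and its 24 h value was 2.85-fold above 0 h. Both genes were called higher at 24 h than at 0 h, 2 of 8 members tested, against 8.64% of all genes called higher, 14.3% called lower and 23% called in either direction.

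Fibroblast markers moved over the same step, with 11 of 14 tested lower and Thy1 and Acta2 higher, against 14.3% and 8.64% of all genes. Their sum was 109 FPKM at 24 h against 846 at 0 h. The part that other cells at 0 h had in the values of Myc was not tested. Among the re-seeded cells, those from 0 h without dox had a marker sum of 12.7 and Myc at 24.5 FPKM.

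No member was called between 24 and 48 h, where 16.8% of all genes were called, 8.59% higher and 8.21% lower. Myc was close to the limit, at 1.99-fold lower, and its value at 36 h was already 1.97-fold below that at 24 h. From 48 to 60 h Myc was 2.01-fold and Mycn 2.27-fold lower. These 2 members were called lower in this step, where 4.26% of all genes were, and Max was 1.56-fold lower. From 48 to 96 h Myc was 2.66-fold and Mycn 3.78-fold lower, again 2 of 8 members, against 11% of all genes called lower, 15.1% higher and 26.2% in either direction. At 96 h only Myc was called against 0 h, as 1 of 8 members, 3.04-fold higher, against 33.3% of all genes called, 16.8% higher and 16.4% lower.

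Mycl, the third family member, had a narrow range with no called step. Its values ran from 6.07 FPKM at 24 h to 9.46 at 0 h, with a median of 7.07. Mycl was highest at the timepoint at which Myc was lowest.

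Max, the common partner of the other members, was at 42.3, 54.8, 51.5, 45.3, 29.0, 28.4 and 23.0 FPKM over the 7 timepoints. Its values from 0 to 48 h were all above those from 60 to 96 h. The pattern of Max was like that of Mycn over the timepoints, with a Pearson r of 0.91 on log2(FPKM + 1) over the 7 timepoints, which come from 1 course of the same cells. Over all 15 conditions r was 0.51. Myc and Mycn themselves had an r of 0.73 over the 7 timepoints and 0.06 over the 15 conditions.

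Mnt, the widely expressed repressor that pairs with Max, was at 17.2, 16.8, 18.1, 19.4, 13.0, 28.1 and 14.2 FPKM. The 72 h value stood above the other 6, 2.16-fold above 60 h and 1.99-fold above 96 h. It was the 1 member called in the step from 60 to 72 h, where 2.97% of all genes were called higher. Without the 72 h condition Mnt would not have been called, since its next highest value of 19.4 is less than 2-fold above 13.0.

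The 4 Mxd genes, whose proteins are known as antagonists of Myc in cells that leave the cell cycle or differentiate, had no called step in the time course. Mxd3, the member known from dividing cells, was the highest of them, from 12.9 FPKM at 72 h to 23.2 at 36 h with a median of 19.2. Mxi1, also called Mxd2, ran from 4.14 FPKM at 96 h to 7.35 at 0 h. Mxd4 ran from 1.95 FPKM at 0 h to 3.86 at 96 h, and Mxd1 from 0.601 to 0.861 FPKM. At every timepoint the order among the 4 was Mxd3, Mxi1, Mxd4 and Mxd1.

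Because FPKM values are per length, the levels of different genes were added. The Myc, Mycn and Mycl sum was 45.1, 141, 119, 105, 50.5, 54.5 and 35.3 FPKM over the 7 timepoints. It was 3.13-fold higher at 24 h than at 0 h, while the sum of the 4 Mxd genes was 1.06-fold higher. The ratio of the Myc sum to the sum of the Mxd genes and Mnt was 0.992, 3.01, 2.34, 2.11, 1.22, 1.11 and 0.869 in the same order. The ratio of RNA levels was thus above 2 from 24 to 48 h and near 1 before and after, and says nothing of protein levels.

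Mycn was the largest part of the Myc sum at all 7 timepoints, between 55.5% and 77.2%. The share of Myc was 5.61% at 0 h and between 17.3% and 28.9% afterwards. The Myc sum was 1.06 times the level of Max at 0 h and 2.57 times at 24 h.

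**Figure D2:**
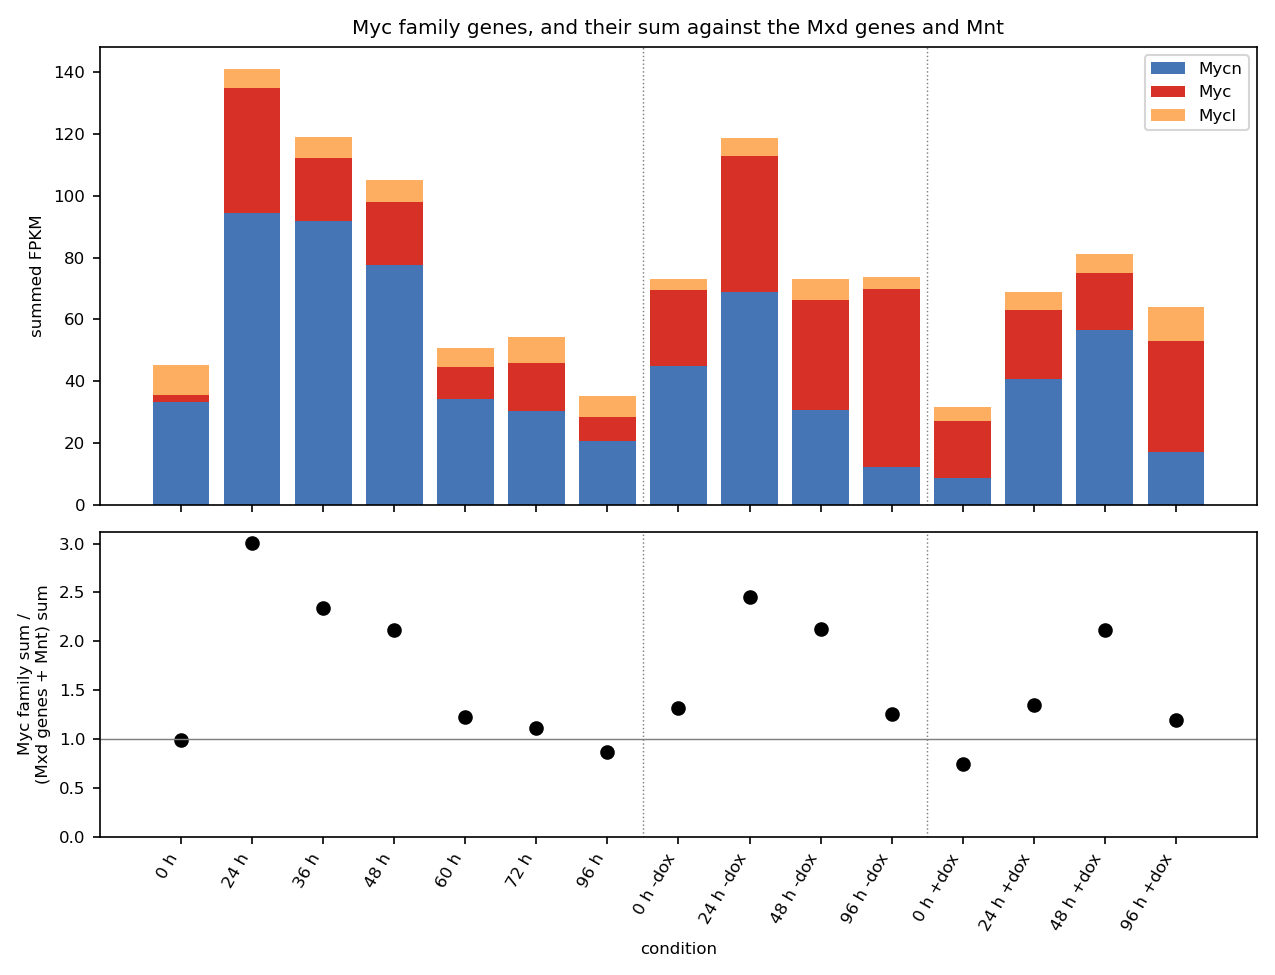
Summed FPKM of Mycn, Myc and Mycl (upper panel, stacked bars from 0) and the ratio of this sum to the summed FPKM of the 4 Mxd genes and Mnt (lower panel, points, with a line at 1) in the 15 conditions on the x axis. Mycn makes the largest part of each timepoint's bar. Myc makes the largest part in the 0 h +dox and 48 h –dox cells and in both conditions re-seeded from 96 h. The ratio runs from 0.748 (0 h +dox) to 3.01 (24 h), and how far the +dox values count RNA of the cMyc transgene is unknown.

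The return to serum/LIF without dox was compared with the timepoint from which the cells were re-seeded. Medium, time in culture and possibly feeders change together in this comparison and cannot be told apart. Myc was at 24.5 FPKM in the re-seeded cells against 2.53 before at 0 h, at 44.3 against 40.7 at 24 h, at 35.9 against 20.5 at 48 h and at 57.6 against 7.7 at 96 h. It was higher after re-seeding at all 4 times, 9.68-fold at 0 h and 7.48-fold at 96 h, and was called at these 2. Mycn went from 33.1 to 45.0 FPKM at 0 h, from 94.4 to 68.7 at 24 h, from 77.5 to 30.5 at 48 h and from 20.5 to 12.2 at 96 h. It was lower after re-seeding from 24, 48 and 96 h, and was called at 48 h.

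At 0 h, 3 of 9 members were called, against 22.1% of all genes (12% higher and 10.1% lower), with Myc and Mxd4 higher and Mycl lower (3.48 against 9.46 FPKM). At 24 h 0 of 8 members were called, against 25.5% of all genes (14.9% higher and 10.6% lower). At 48 h 1 of 8 was called, Mycn as lower, against 26.8% (15.3% higher and 11.5% lower). At 96 h 3 of 9 were called, Myc, Mxd1 and Mxd4, all higher, against 23.6% of all genes (12.4% higher and 11.2% lower). The calls of Mxd4 at 0 h and of Mxd1 at 96 h were lost at a minimum of 5 FPKM. Mxd3 and Mxi1 stood just inside 2-fold at 48 h, each with a log2 ratio of -0.99.

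Mxd4, an Mxd gene known from differentiated tissues, had its highest value of all 15 conditions in the cells re-seeded from 96 h without dox, at 16.4 FPKM. The other –dox values were 4.38, 2.01 and 1.93 FPKM, for 0, 24 and 48 h. The 96 h value was 4.25-fold above the 3.86 FPKM of the 96 h timepoint, and Mxd4 then made 46.7% of the Mxd sum against 39.7% for Mxd3. Mxd1 was also highest there, at 1.66 FPKM against 0.722 before re-seeding. In this condition Myc made 78.3% and Mycn 16.6% of the Myc sum.

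The fibroblast markers moved with these values. Of 11 tested, 8 were higher in the cells re-seeded from 96 h without dox than at 96 h, against 12.4% of all genes. Thy1 and Dcn were lower, against 11.2% of all genes. The list summed to 511 against 236 FPKM. Acta2, the smooth muscle actin gene, was the largest of the markers, at 255 against 97.9 FPKM, and Tagln was at 84.7 against 105. Both were singled out after their values were seen. The part of these markers in the levels of Myc, Mxd1 and Mxd4 was not tested.

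With OSKM induction, Myc was not higher in any of the re-seeded conditions. The –dox and +dox values were 24.5 and 18.7 FPKM at 0 h, 44.3 and 22.4 at 24 h, 35.9 and 18.7 at 48 h and 57.6 and 36.1 at 96 h. Myc therefore does not check the +dox label. Pou5f1 had higher values with dox at all 4 times. At 0 and 24 h they were 425 against 360 and 262 against 213 FPKM, neither called. The sum over all genes was also higher with dox at all 4 times. In order of time it was 780691 against 665942, 701242 against 650564, 832607 against 780060 and 764104 against 675000 FPKM. At 48 and 96 h Pou5f1 was at 204 against 72.6 and 9.95 against 2.63 FPKM, both called. Sox2 and Klf4, the latter named after its values were seen, were lower with dox at 0 h (122 against 224 and 66.7 against 84.8 FPKM). They were higher at 48 h (87.8 against 43.4 and 14.6 against 4.68 FPKM), and only these differences at 48 h were called. Oct4, Sox2 and Klf4 are transgenes too, so the values of all 3 genes can also include transgene reads. The log2 ratio of Myc, between -0.98 and -0.39, stood inside the 2-fold limit at all 4 times.

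Mycn differed in both directions with dox. At 0 h it was at 45.0 FPKM without and 8.45 with dox, at 24 h at 68.7 and 40.6, at 48 h at 30.5 and 56.4 and at 96 h at 12.2 and 17.0. The first pair is a 5.33-fold lower value, the largest fold of any member with dox, at rank 52 from the bottom of 12736 genes. At 24 h Mycn was 1.69-fold lower, and at 48 h it was 1.85-fold higher, neither of which was called. At 0 h Mycn was the 1 member called, of 9 tested, against 5.61% of all genes called lower, 3.62% higher and 9.23% in either direction.

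At 24 h 0 of 8 members were called with dox, against 6.27% of all genes (2.87% higher and 3.4% lower). At 48 h 1 of 8 was called, Mxd4 as lower, against 13% of all genes (6.55% higher and 6.46% lower). At 96 h 3 of 9 were called, Mycl and Mxi1 as higher and Mxd4 as lower, against 17.7% of all genes (6.67% higher and 11.1% lower). Max was lower with dox at all 4 times, by 1.28-fold at 0 h and 1.57-fold at 96 h, with no call. Mnt had log2 ratios between -0.37 and 0.10 and Mxd3 between -0.33 and 0.29, so that neither came near the limit.

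Mxd4 and Mxi1, both Max-binding antagonists, stood in opposite directions in the cells from 24, 48 and 96 h. Mxd4 was at 2.01 FPKM without and 1.27 with dox at 24 h, 1.93 and 0.748 at 48 h and 16.4 and 5.5 at 96 h, the last 2 pairs being 2.57-fold and 2.98-fold lower, with the 48 h call lost at a minimum of 5 FPKM. Mxi1 was at 3.78 and 5.86 FPKM at 24 h, 2.28 and 4.46 at 48 h and 3.12 and 7.82 at 96 h, or 1.55-fold, 1.95-fold and 2.5-fold higher. At 0 h both were lower with dox, Mxd4 at 2.31 against 4.38 FPKM and Mxi1 at 5.62 against 7.44. Mycl was 2.93-fold higher with dox at 96 h, at 11.0 against 3.76 FPKM, and this was its highest value of all conditions.

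The fibroblast marker sum at 96 h was 322 FPKM with dox and 511 without. Of 11 tested markers 6 were lower and 1, Dcn, higher, against 11.1% and 6.67% of all genes. Acta2 and Tagln made most of the sum with dox, at 193 and 87.2 FPKM. The part of these markers in the lower Mxd4 value and in the higher Mycl and Mxi1 values was not tested.

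**Figure D3:**
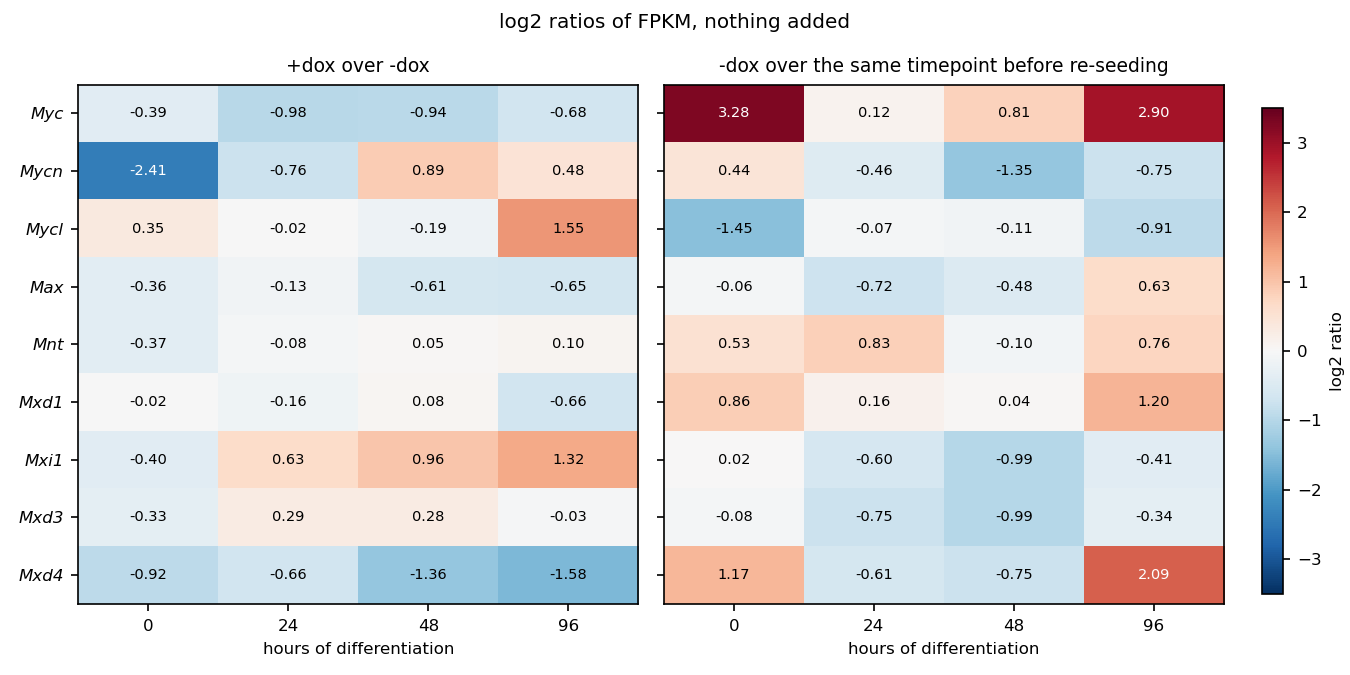
Log2 ratios of FPKM with nothing added for the 9 network genes (rows) at 0, 24, 48 and 96 h of differentiation (columns), with dox over without dox on the left and without dox over the timepoint before re-seeding on the right. Red is higher and blue lower, and each cell gives its value. The Mycn row on the left runs from -2.41 at 0 h to 0.89 at 48 h, and the largest value on the right is that of Myc at 0 h, 3.28.

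The summed level of Myc, Mycn and Mycl was 73 FPKM without and 31.6 with dox at 0 h, 119 and 68.7 at 24 h, 73.1 and 81 at 48 h and 73.5 and 64 at 96 h. At 0 and 24 h the –dox sum was 2.31-fold and 1.73-fold the +dox sum, and at 48 and 96 h the sums were within 1.15-fold. Their makeup still differed at 48 h, where Mycn was 41.7% of the sum without and 69.6% with dox. At 0 h it was the reverse, at 61.7% without and 26.8% with dox. The ratio of the Myc sum to the Mxd genes and Mnt was 0.748 in the 0 h +dox cells, the lowest of all conditions, against 1.32 in the 0 h –dox cells. How far the Myc value counts RNA of the induced cMyc transgene is unknown. The +dox sums, shares and ratios may therefore leave part of it out.

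The parallel branch of the network is built on Mlx, which pairs with the glucose-sensing factors encoded by Mlxip and Mlxipl, and Mga is a large Max-binding repressor. From 0 to 96 h of withdrawal 0 of the 4 genes were called higher and 2 lower, against 16.8% and 16.4% of all genes. Mlx went from 43.4 to 20.8 FPKM and Mlxipl from 5.63 to 1.41. The median log2 ratio, of values plus 1 FPKM for this and all following lists, was -0.94 against -0.02 over all tested genes. Mga was at 40.9 FPKM at 0 h, 52.5 at 24 h and 22.3 at 96 h, and Mlxip lay between 3.47 and 6.29 over the course. With dox at 48 h Mlxipl was the 1 gene of 4 called, higher at 2.47 against 1.07 FPKM, where 6.55% of all genes were higher. Mga was at 38.9 against 23.2 FPKM.

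Of 14 cofactors of Myc, among them histone acetyltransferase and elongation subunits, 0 were called between 0 and 24 h, against 23% of all genes. The median was 0.29 against -0.01 over all genes. At 96 h against 0 h 1 was called, Wdr5, a scaffold of histone methyltransferases, lower at 58.4 against 126 FPKM. Of all genes 33.3% were called, 16.4% as lower. Cdk9, the elongation kinase, was at 46 against 87 FPKM. With dox 0 of 14 were called at each of the 4 times, against 9.23%, 6.27%, 13% and 17.7% of all genes in order. The medians of the list were between -0.06 and 0.04 with dox. Skp2, a ubiquitin ligase subunit, was at 19.6 against 14.6 FPKM at 48 h.

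Of 8 corepressors used by the Mxd proteins and Mnt, 0 were called in the 4 comparisons between timepoints. Of all genes 16.8% to 33.3% were called there. Hdac1, a histone deacetylase, was at 149 FPKM at 0 h and 80.8 at 96 h, and Sap30, a subunit of the Sin3 complex, at 53.1 and 28.9. With dox at 48 h Sap30 was the 1 of 8 called, higher at 58.8 against 28.9 FPKM, where 6.55% of all genes were higher. Hdac2 was at 129 against 93.7 FPKM. The list's median was then 0.30 against -0.02 over all genes. At 96 h with dox Sap30 was again called higher and Sin3b lower, against 6.67% and 11.1% of all genes. At 0 and 24 h 0 of 8 were called, against 9.23% and 6.27% of all genes.

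Of 11 genes of Myc protein turnover, 2 were called higher, Usp36 and Ppp2r5a, and 1 lower at 96 h against 0 h. Of all genes 16.8% were higher and 16.4% lower. Ppp2r5a, a subunit of the phosphatase that promotes loss of Myc, was at 43.2 against 20.5 FPKM. Usp28, a deubiquitinase that stabilises Myc, was the 1 gene lower, at 16.1 against 38.4. Usp28 was also the 1 gene of the list called with dox at 24, 48 and 96 h, each time as higher. Of all genes 2.87%, 6.55% and 6.67% were higher at these times. Usp28 without and with dox was at 34.7 and 72.5 FPKM at 24 h and 16.9 and 74.2 at 48 h. At 96 h it was at 10.4 and 25.9 FPKM. The pair at 48 h is the list's largest difference there.

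Targets of Myc were described by 3 lists. Of 18 nucleolar genes, which make and process ribosomal RNA, 1 was called higher at 24 h against 0 h, Nolc1. Of all genes 8.64% were higher and 14.3% lower, and the list median was 0.61 against -0.01 over all genes. At 48 h against 24 h 0 were called in either direction, against 16.8% of all genes, and the median was -0.10. At 96 h against 48 h 8 of 18 were called lower and 0 higher, against 11% and 15.1% of all genes. The median was -0.89 against 0.01. At 96 h against 0 h Dkc1, the pseudouridine synthase gene, was the 1 called, lower at 47 against 100 FPKM. Of all genes 16.4% were lower and 16.8% higher. Rrp9, of the U3 particle, was at 36.4 against 69.3 FPKM.

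After return to serum/LIF from 48 h, 7 of 18 nucleolar genes were called lower and 0 higher than at 48 h. Of all genes 11.5% were lower and 15.3% higher, and the list median was -0.78 against -0.01. With dox 0 of 18 were called at 0, 24 and 48 h, against 9.23%, 6.27% and 13% of all genes. The medians were 0.12, -0.17 and -0.08. Rrp9 alone was called at 96 h, as higher, against 6.67% of all genes, with a list median of 0.30. At 48 h Polr1b, an RNA polymerase I subunit, was at 14.6 FPKM with and 20.5 without dox, and Nop16 at 37.3 and 49.5. At 0 h, where Mycn was 5.33-fold lower with dox, the list median was 0.12, against 0.04 over all genes. Dox also induces the cMyc transgene, so the parts of Mycn and of the transgene in these values cannot be told apart.

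**Figure D4:**
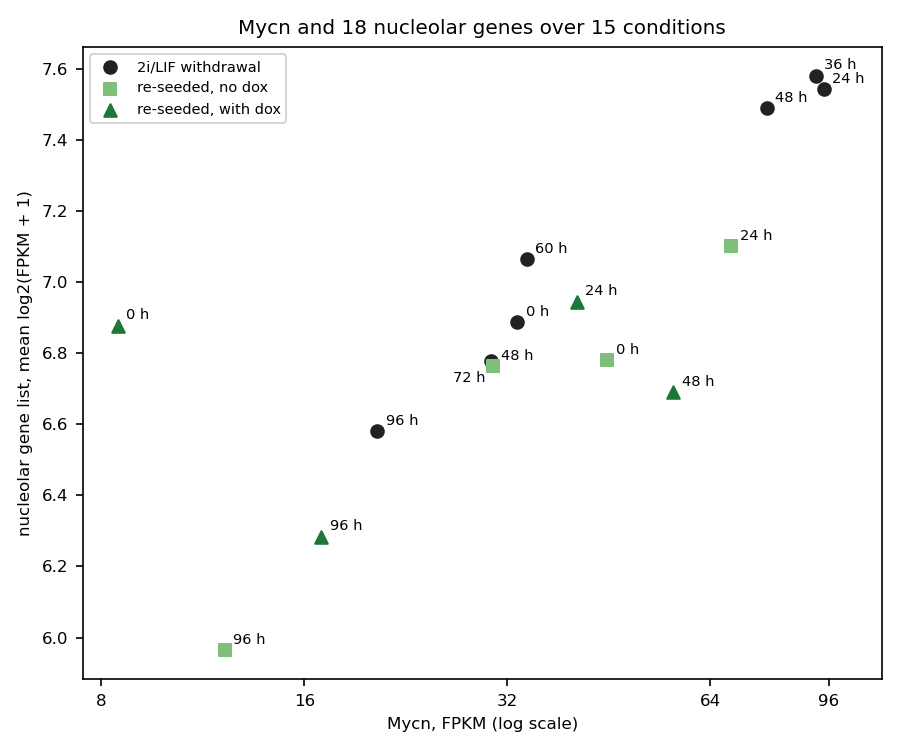
Mean log2(FPKM + 1) of the 18 nucleolar genes (y axis) against the FPKM of Mycn (x axis, log scale) in the 15 conditions, with black circles for withdrawal timepoints, light squares for –dox and dark triangles for +dox, each marked with its hours of differentiation. The timepoints lie along a rising line from 96 h (20.52 FPKM and 6.580) to 36 h (91.78 FPKM and 7.581), and the 0 h +dox cells lie apart at 8.452 FPKM and 6.878.

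The mean log2 level of the nucleolar list had an r of 0.99 with log2(FPKM + 1) of Mycn over the 7 timepoints and 0.78 over the 15 conditions. For Max these were 0.88 and 0.65, for the antagonist gene Mxd3 0.76 and 0.61, and for Myc 0.70 and -0.12. The remaining members lay between -0.52 and 0.65 over the timepoints and between -0.50 and 0.19 over the 15 conditions. For the metabolic and cell cycle list described below, r was 0.94 and 0.69 for Mycn and 0.92 and 0.65 for Max. For Mxd3 it was 0.80 and 0.75 and for Myc 0.50 and -0.28, so over the 15 conditions Mxd3 stood above Mycn there. The conditions share cells and the values are relative to each library, so these are descriptions. In the 0 h +dox cells Mycn was the lowest of all conditions at 8.45 FPKM, and the list mean was 6.878, against 6.780 in the 0 h –dox cells. The cMyc transgene is induced in the +dox cells, and its part in the list mean was not tested.

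Of 20 metabolic and cell cycle genes, 2 were called higher and 1 lower at 24 h against 0 h. The higher ones were Odc1 and Srm, of polyamine synthesis, and the lower one was Ccnd2. Of all genes 8.64% were higher and 14.3% lower, and the list median was 0.32. At 96 h against 48 h 1 was higher, again Ccnd2, and 9 lower, against 15.1% and 11% of all genes. The median was -0.59. At 96 h against 0 h 0 were higher and 3 lower, namely Ccnd2, Tfrc and Ppat, against 16.8% and 16.4% of all genes. Tfrc, the transferrin receptor, was at 17.6 against 51.4 FPKM and Ppat, of purine synthesis, at 20.3 against 47.9. After return to serum/LIF from 48 h 8 of 20 were lower and 0 higher, against 11.5% and 15.3% of all genes. The median was -0.67. With dox at 48 h 0 of 19 tested were called, against 13% of all genes, and the median was 0.08. Impdh2, of guanine nucleotide synthesis, was at 2490 against 1510 FPKM and Tfrc at 12.2 against 21.3.

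Of 8 genes known to be repressed by Myc, 1 was called higher, Gadd45a, and 3 lower at 24 h against 0 h. The 3 were Cdkn1a, Ndrg2 and Gadd45b. Of all genes 8.64% were higher and 14.3% lower, and the list median was -0.69. At 96 h against 48 h 4 were higher, Cdkn1b, Ndrg1, Gadd45a and Gadd45b, and 2 lower, Cdkn2b and Ndrg2. Of all genes 15.1% were higher and 11% lower, and the list median was 1.00. Gadd45b and Gadd45a, both stress response genes, were at 117 against 24.7 FPKM and 50.1 against 10.9 at 96 h against 0 h. With dox at 48 h 1 of 7 tested was called, Ndrg2, higher at 4.4 against 1.83 FPKM, where 6.55% of all genes were higher. Cdkn2b, a cell cycle inhibitor gene, was at 2.73 against 4.54 FPKM. The list's median was then -0.41 against -0.02 over all genes.

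The genes whose patterns were most like each member were taken by Pearson r of log2(FPKM + 1) over the 15 conditions, among 9067 genes that reached 10 FPKM, as a description with no test. For Mycn they were Gnl3, which encodes nucleostemin and belongs to the nucleolar list (r = 0.933), Fbxo5, an inhibitor of the anaphase-promoting complex (0.928), and Gsg2, a histone H3 kinase (0.926). For Max they were Ccdc115 (0.942), Psmd12, a proteasome subunit (0.932), and Cep19 (0.921). For Mxd4 they were Mark3, a kinase (0.901), Zfyve19 (0.900) and Slc27a3 (0.869). For each of these 3 members the closest partner had an r above 0.90, higher than for the other members compared.

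For Mxd3 the closest were Srek1, Snw1 and Pqbp1, all of them linked to splicing, with r between 0.880 and 0.886. For Mxi1 they were Tprn (0.849), Igf2bp2, an RNA-binding protein gene (0.819), and Acot7 (0.814). For Myc they were Foxk1, a forkhead factor (0.841), Tsnax (0.799) and Nono (0.788), and for Mycl Abhd17c (0.807), Fam83d (0.778) and Slc30a5 (0.746). Mnt had the least close partners, Sft2d1 (0.702), Ikbkg (0.695) and Tnpo2 (0.677). Mxd1 did not reach the 5 FPKM set for this comparison.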

How the data were processed

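Polyadenylated RNA of 30 samples was sequenced. Per the labels and the methods, the authors mapped reads to mm10 with TopHat2 2.0.14, quantified Gencode transcripts with Cufflinks 2.2.1 and combined the 2 replicates of each condition with Cuffdiff into the deposited FPKM values. The library normalization is not given in the sources used here. The table also holds the authors' calls of dynamic and dox-responsive genes, which were not used. Depth is unknown, since the table has no counts, and the combined values give no precision.

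Values were used as deposited, with Python 3.11.15, numpy 2.4.6, pandas 2.3.3 and matplotlib 3.10.9. Rows of repeated damaged symbols, 4 in all, were left out, which left 22473 genes. A gene was called at a ratio of at least 2 with the higher value at 1 FPKM or more, after the fold and minimum of the methods. The methods also required a statistically significant change in Cuffdiff, which was not applied here. Genes with 1 FPKM in either condition were tested against this limit. List medians used log2 ratios of FPKM plus 1. The steps were tested on simulated data. Each condition was compared as 1 value, and alternatives changed the fold, the minimum, the pseudocount, the scaling and, for likeness, the conditions.

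The members and the 11 lists (naive, core, formative and lineage, and fibroblast markers, Mlx branch, Myc cofactors, corepressors, turnover, 2 target lists and repressed genes) were chosen with earlier results of these data known. Genes named are the 9 members, for each member that reaches 5 FPKM the 3 genes of highest r among those that reach 10 FPKM, of each list the 2 genes with the largest difference at 96 h against 0 h and the 2 at 48 h with against without dox, the Mlx branch, Pou5f1 and Nanog. Of the genes that the rule takes, 1 is not reported here. Any other gene was named after its values were seen. Promoter sequences come from RefSeq on GRCm38.p6.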

Additional observations from a re-analysis of the deposited data

Results flagged for a closer look

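The response of Mycn to dox differed in direction between times of differentiation. Its log2 ratio of +dox to –dox was -2.41 in cells re-seeded from 0 h (8.45 against 45.0 FPKM) and 0.89 in cells re-seeded from 48 h (56.4 against 30.5 FPKM). Each value combines 2 replicates, and the difference between the times was not tested.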

How the results depend on the processing

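The number of members called was 4 over the time course, 5 in the 4 comparisons between timepoints, 5 with dox and 7 after return to serum/LIF. With a fold of 1.5 these were 8, 13, 17 and 21, and with a fold of 3 they were 2, 3, 1 and 3. The shares of all genes called at these folds are not given here, so these counts are no result about the members. The r of Mycn and Max was 0.51 over 15 conditions and 0.91 over the 7 timepoints. Of 756 values of members under all alternatives, 696 kept their call or their lack of one, 16 lost a call and 44 gained one. None of the alternatives could have reversed a called value. Changing the fold or the minimum leaves the ratio as it is, and a pseudocount keeps its direction. The scalings moved log2 ratios by 0.27 at most, which is less than a call needs.

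A minimum of 5 FPKM, and equally a pseudocount of 1 FPKM, ended 3 calls, Mxd4 with dox at 48 h, Mxd4 after return at 0 h and Mxd1 after return at 96 h. Scaling each condition to the same sum moved the log2 ratios of all genes by between -0.23 and 0.27, depending on the comparison, and added 8 calls. Median-ratio factors moved them by between -0.03 and 0.04 and added 2. With the same sum, calls with dox were 2 higher and 6 lower (2 and 3 as deposited) and those after return 6 higher and 4 lower (5 and 2). With median-ratio factors, calls between timepoints were 3 higher and 4 lower (3 and 2). The sign of 7, 3 and 3 values in the 3 kinds of comparison changed with the same sum, none of them above 0.13 in size. No paired analysis was possible because the columns carry no replicate numbers, and no sample was left out in turn, since each column combines both replicates.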

Other observations

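Of 6 core pluripotency markers, 3 were called lower at 96 h against 0 h, Pou5f1, Sox2 and Tdgf1, and 2 higher, Utf1 and Lin28a. Of all genes 16.4% were lower and 16.8% higher. The 6 markers summed to 903 FPKM at 0 h, 1485.7 at 24 h and 619 at 96 h. At these times Utf1 was at 62.5, 613 and 254 FPKM and Sox2 at 248, 151 and 33 FPKM. After re-seeding from 96 h the sum was 186 FPKM without and 293 with dox. With dox at 48 h 7 of 9 tested naive markers were called higher, against 6.55% of all genes. Esrrb was at 56.2 against 8.31 FPKM and Tcl1 at 6.21 against 0.636. Tcl1 and Tfcp2l1 had the largest differences of the naive list at 96 h against 0 h, at 0.449 against 110 and 1.48 against 124 FPKM. Of the formative and lineage list, Pou3f1 was at 25.9 against 0.827 FPKM and Fgf5 at 12.7 against 0.164 at 96 h against 0 h. With dox at 48 h Fgf5 was at 0.381 against 17.2 FPKM and T at 0.39 against 5.9. Of the fibroblast list, Thy1 was at 8.2 FPKM with and 1.55 without dox at 48 h, and Col5a2 at 2.27 and 8.3. Of the core list, Tdgf1 was at 4.62 FPKM at 96 h against 253 at 0 h.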
